A study of Mus musculus with 4 samples.

Results

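Interferon-stimulated genes were followed through the cell types of mouse liver as a list of 41 genes matched by symbol, and 40 of them had a row among the 31053 genes of the deposited matrices. Mx2 is not analysed here. The list was read as type I members, which are Ifit1, Ifit2, Ifit3, Oasl2, Oas1a, Oas2, Oas3 and Mx1 (8 genes), against gamma-type members, which are the GTPase genes Gbp2, Gbp3, Gbp5, Gbp7, Irgm1 and Igtp (6 genes), with the others described by their role. Livers of C57BL/6 mice were profiled by droplet single-cell RNA sequencing in 4 libraries, 1 for each of 4 groups: the controls, a low-AFP and a high-AFP group, and a tumour group (HCC), where AFP is alpha-fetoprotein and HCC is hepatocellular carcinoma. Mice are labelled as 15 months old in the titles but as 17 months old in the age field, in every group. The control library is titled as control diet and the low-AFP library as CD-HFD, the diet named in the series title. The title of the high-AFP library says control diet whereas its file is named for CD-HFD, so its diet is not settled and the groups are named by AFP label. The HCC library came from a cell suspension of the tumour region, and the protocol, worded alike for all libraries, describes mixing purified parenchymal cells 1:1 with sorted live non-parenchymal cells. How many animals each library holds was not given in the sources used here.

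With 1 library per group there are no replicates. No test was made, and each difference describes these libraries. Values are counts of unique molecules (UMIs) summed over the cells of a class and expressed per 1000000 nuclear-encoded UMIs (CPM), and intervals are exact 95% Poisson intervals that cover counting error only. A gene was measured in a comparison at 10 CPM or more in either library, and was called higher or lower at a 2-fold difference after adding 10 CPM to both values. Counts of called members are set beside the percentage of all measured genes of that class that were called the same way.

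The libraries held 65326793 to 97393862 UMIs and gave 5129 to 7902 cells each after filtering, 26558 in all, with median depths of 4685 to 7395 UMIs. Any pair of libraries shared 3 to 29 barcodes. Barcodes over the mitochondrial limit were 42.68%, 42.02% and 26.5% in control, low-AFP and high-AFP, and 8.187% in HCC. Cells were clustered without the 41 genes or the other interferon pathway genes, and 35 of 37 clusters were named from fixed markers as 1 of 13 classes. The HCC library stood apart in its makeup. It gave 888 hepatocyte-like cells with a median of 2216 UMIs, against 2135 to 3592 cells with medians of 12090 to 16167 UMIs in the others, and only 102 endothelial-like cells against 845 to 1575. The summed hepatocyte markers stood at 117563, 87764, 64272 and 48567 CPM in the hepatocyte-like cells. Here and throughout, 4 values in a row belong to control, then low-AFP, then high-AFP, then HCC.

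Interferons are secreted proteins that put cells into an antiviral and inflammatory state. Type I interferons (alpha and beta) act through IFNAR and a transcription factor complex that includes STAT2 and IRF9 and binds interferon-stimulated response elements (ISREs). Interferon gamma, made mainly by T and NK cells, acts through IFNGR and leads to binding at gamma-activated sites (GAS). Both inducers reach overlapping sets of genes, so the split into type I and gamma-type members is one of emphasis. In the liver these genes are known from viral hepatitis, from fatty liver disease and from the response of Kupffer cells and sinusoidal endothelium to inflammation.

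Promoter sequence was available for most of the list. RefSeq promoters on GRCm38.p6, from 250 bases before to 50 bases after the start, were matched by symbol for 30 of the 41 genes. An ISRE-type match (GAAANNGAAA or, on the other strand, TTTCNNTTTC) was found in 18 of the 30 and in 3.443% of all 32851 promoters of that length. All 6 gamma-type promoters and 4 of the 6 type I promoters held one. A GAS-type match (TTCNNNGAA, which reads the same on both strands) was found in 8 of the 30, against 8.298% of all promoters, and in 3 of the 6 gamma-type and 2 of the 6 type I promoters. Both matches occurred in 5 of the 30, of which 3 were gamma-type. A match of letters describes the sequence and does not show a bound site. The 160 bases before the start are shown for 6 genes whose levels are described below, each on the gene's own strand, in lower case with ISRE-type and GAS-type matches in capitals.

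Ifit1, chr19:34640729-34640888, plus strand: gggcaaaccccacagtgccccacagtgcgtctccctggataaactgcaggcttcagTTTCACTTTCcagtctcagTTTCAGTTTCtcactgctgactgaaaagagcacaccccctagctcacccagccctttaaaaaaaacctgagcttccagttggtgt
Ifit3, chr19:34583369-34583528, plus strand: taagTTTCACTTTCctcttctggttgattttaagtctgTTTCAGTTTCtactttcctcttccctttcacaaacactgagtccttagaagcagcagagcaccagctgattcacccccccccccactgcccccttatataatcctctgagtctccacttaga
Isg15, chr4:156200819-156200978, minus strand: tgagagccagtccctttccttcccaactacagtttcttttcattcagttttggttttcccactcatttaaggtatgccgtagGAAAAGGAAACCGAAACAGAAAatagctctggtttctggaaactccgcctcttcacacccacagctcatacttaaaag
Gbp2, chr3:142620503-142620662, plus strand: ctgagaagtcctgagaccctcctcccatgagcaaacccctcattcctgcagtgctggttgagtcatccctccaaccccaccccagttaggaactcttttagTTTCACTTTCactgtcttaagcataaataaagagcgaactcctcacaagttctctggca
Igtp, chr11:58199396-58199555, plus strand: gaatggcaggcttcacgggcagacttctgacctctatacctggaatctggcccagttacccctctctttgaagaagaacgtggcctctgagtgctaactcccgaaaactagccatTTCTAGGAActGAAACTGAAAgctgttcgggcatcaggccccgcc
Irf1, chr11:53769854-53770013, plus strand: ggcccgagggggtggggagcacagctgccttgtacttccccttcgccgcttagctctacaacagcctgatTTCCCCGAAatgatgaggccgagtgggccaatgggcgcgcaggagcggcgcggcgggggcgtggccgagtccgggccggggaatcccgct

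Ifit1 and Ifit3, type I members that encode RNA-binding antiviral proteins, each carry a pair of ISRE-type matches, which begin 104 and 85 bases before the start in Ifit1 and 156 and 122 bases before it in Ifit3. Isg15, a ubiquitin-like modifier, has 3 overlapping matches that begin 78, 72 and 66 bases before its start. Gbp2, a guanylate-binding protein gene, holds an ISRE-type match at 59 bases. Igtp, an immunity-related GTPase gene, has a GAS-type match at 45 bases and an ISRE-type match at 34 bases with a 2-base gap between them. Irf1, a transcription factor gene induced by interferon gamma, holds a GAS-type match at 90 bases and no ISRE-type match in these 160 bases.

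Across the liver, the type I members were high in myeloid and endothelial-like cells and low in lymphoid and hepatocyte-like cells. The summed type I level was 531, 683, 540 and 443 CPM in macrophage-like cells. In monocyte-like cells it was 265, 649, 519 and 391 CPM. Endothelial-like cells had 299, 443, 382 and 312 CPM. Neutrophil-like cells, with too few cells in control for a value, had the highest sums of any class in low-AFP, high-AFP and HCC at 925, 811 and 599 CPM, from 57 to 225 cells. Conventional dendritic-like cells had 143, 260, 242 and 239 CPM and T-like cells 115, 142, 132 and 98.7 CPM. Hepatocyte-like cells lay lower, at 35.9, 59.8, 57.3 and 101.7 CPM, the last of which was 45.6 CPM without 1 cell described below. B-like cells stood at 26.3, 41.7, 70.7 and 51.7 CPM. Mesenchymal-like cells, which reached 50 cells only in control, had 459 CPM there.

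Gamma-type members were spread differently. Their sum was 427, 868, 514 and 524 CPM in endothelial-like cells and 449, 530, 435 and 454 CPM in macrophage-like cells. Monocyte-like cells, described below, had 643, 587, 489 and 390 CPM. In low-AFP, high-AFP and HCC, neutrophil-like cells had 886, 499 and 445 CPM and NK-like cells 321, 263 and 237 CPM. T-like cells, low for type I members, had 351, 272, 264 and 283 CPM of gamma-type members. B-like cells had 184, 173, 154 and 133 CPM, and hepatocyte-like cells 83.9, 122, 105 and 115 CPM. Since the libraries count 3′ ends, the ratio of the sums does not scale with transcript length, and it ranged from 0.14 to 0.46 in B-like and from 0.33 to 0.52 in T-like cells. It was 1.18, 1.29, 1.24 and 0.98 in macrophage-like cells and 0.70, 0.51, 0.74 and 0.60 in endothelial-like cells. In both the macrophage-like and the endothelial-like class the low-AFP library had the highest type I and the highest gamma-type sum of the 4.

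**Figure D1:**
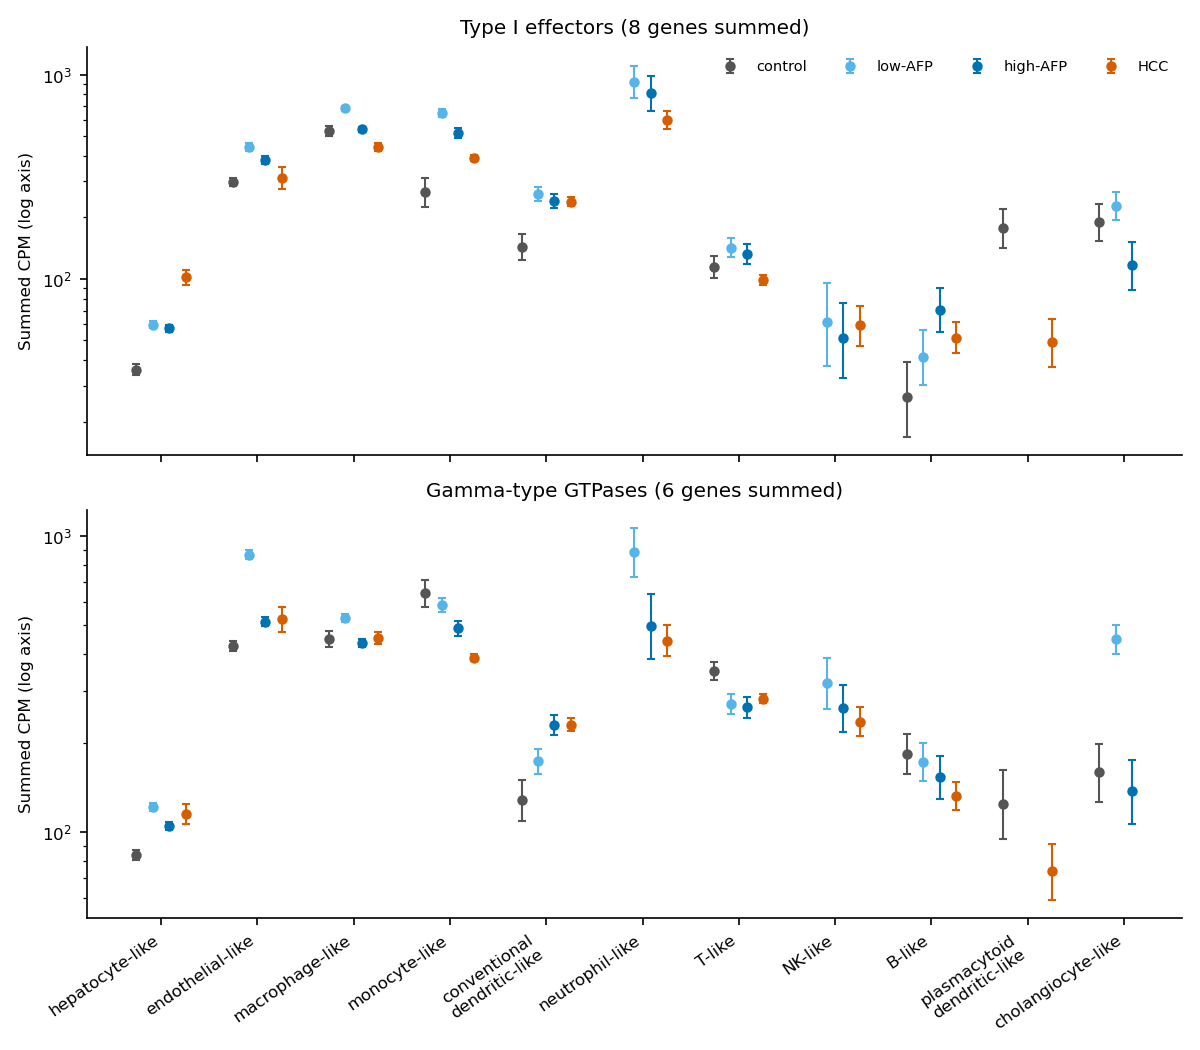
Summed level (CPM, log axis) of the 8 type I members (top) and the 6 gamma-type members (bottom) in each cell class with at least 50 cells, 1 point per library with its exact 95% Poisson interval. Macrophage-like cells run from 443 to 683 CPM of type I members, against 35.9 to 101.7 CPM in hepatocyte-like cells (35.9 to 59.8 CPM with the HCC value taken without 1 cell), and endothelial-like cells of the low-AFP library stand at 868 CPM of gamma-type members.

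In endothelial-like cells of the low-AFP library the whole list lay above control. All 36 members measured were above control, against 47.96% of all measured genes, and the median log2 fold was 0.48 against -0.01 for all genes. Of the 36, 4 members were called higher and 0 lower, where 0.727% of all genes were called higher and 0.358% lower. The gamma-type members moved most as a group, with a median log2 fold of 0.83, against 0.51 for the 5 type I members measured.

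Igtp stood at 38.1, 127, 56 and 71.1 CPM in endothelial-like cells, a ratio of low-AFP to control of 3.33 (2.85 to 3.89). Iigp1, which encodes another immunity-related GTPase that attacks the vacuoles of intracellular parasites, stood at 239, 664, 330 and 469 CPM, a ratio of 2.77 (2.60 to 2.96). For both genes the low-AFP library was the highest of the 4 and control the lowest. Irgm1, a GTPase gene that regulates the others of its family, stood at 104, 215, 128 and 77.0 CPM. Gbp7, a guanylate-binding protein gene, stood at 139, 260, 144 and 190 CPM. Both came near to, but stayed under, a 2-fold difference after the added 10 CPM, with low-AFP the highest library. The remaining guanylate-binding genes kept that order between control and low-AFP: Gbp2 stood at 74.5, 137, 95.1 and 99.5 CPM, Gbp3 at 39.1, 74.8, 57.5 and 62.8 CPM, and Gbp5 at 32.0, 54.1, 33.8 and 23.7 CPM. None of these 3 was called.

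The other members called in the low-AFP endothelial-like cells were Zbp1 and Irf7. Zbp1, a sensor of left-handed nucleic acids that can trigger necroptosis, stood at 5.86, 33.3, 26.9 and 26.1 CPM, and Irf7, the transcription factor that amplifies type I interferon production, at 43.5, 104, 100 and 83.0 CPM. For these genes the high-AFP and HCC libraries lay close to low-AFP and control lay apart. Ratios of low-AFP to control were 5.68 (3.92 to 8.42) for Zbp1 and 2.38 (2.04 to 2.78) for Irf7.

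In high-AFP, 31 of the 36 measured members were above control and the median log2 fold was 0.22 (-0.03 for all genes). Called higher were 3 members, Zbp1, Irf7 and Ubd, and 0 lower, beside 1.01% and 0.436% of all genes. Set directly against low-AFP, 3 of 36 members lay above it and the gamma-type median log2 fold was -0.63, so the gamma-type part of the difference was smaller in high-AFP, whereas Irf7 and Zbp1 lay close together in these libraries. In HCC, 3 members were called higher and 2 lower of 35, beside 5.82% and 8.40% of all genes. Isg15 was at 68.2, 118, 98.0 and 223 CPM and Ifi27l2a, a small mitochondrial interferon-induced gene, at 20.7, 41.5, 48.1 and 80.6 CPM, so both were highest in HCC. The pair called lower in HCC were Cmpk2, a mitochondrial nucleotide kinase gene, at 60.0, 61.4, 48.9 and 19.0 CPM, and Lgals3bp, a secreted galectin ligand gene, at 266, 277, 269 and 122 CPM. Among type I members, Ifit1 stood at 57.5, 85.4, 80.7 and 74.7 CPM, Ifit3 at 58.9, 90.2, 68.5 and 68.7 CPM, and Oasl2, of the oligoadenylate synthetase family, at 81.3, 120, 98.5 and 94.8 CPM. Ifit2 fell out of that pattern with 88.8, 122, 109 and 41.5 CPM, lowest in HCC.

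The difference between low-AFP and control was present within both large endothelial-like clusters. Cluster 2, led by Esm1, Ntn4 and Efnb1, had gamma-type sums of 443, 995 and 600 CPM in control, low-AFP and high-AFP. Cluster 5, led by Plpp1, Wnt2 and Bmp2, had 412, 718 and 429 CPM. Type I sums were 302, 519 and 417 CPM in cluster 2 and 307, 398 and 404 CPM in cluster 5. Most HCC endothelial-like cells (71.57%) lay in cluster 26, led by Rspo3 and Vwf, which had too few control cells for a comparison, so cluster and library cannot be told apart there. Beside these results, hepatocyte markers in endothelial-like cells summed to 8193, 4784, 3925 and 998 CPM and genes known to respond to tissue dissociation to 4022, 2314, 2268 and 6455 CPM, and their part in the differences was not tested.

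Read per cell, more endothelial-like cells of low-AFP had gamma-type UMIs. After thinning every cell to 2000 UMIs, 51.2%, 71.5%, 56.5% and 59.1% had at least 1, and 7.10%, 24.0%, 9.98% and 12.5% had at least 3. The share with at least 3 type I UMIs was 5.82%, 9.65%, 8.93% and 4.55%.

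In monocyte-like cells the members called higher than control were type I and other antiviral genes, with no gamma-type member among them in low-AFP. In low-AFP, 9 of 37 measured members were called higher and 0 lower, beside 0.477% and 0.552% of all genes. Of these, 5 belonged to the 8 type I members, whose median log2 fold was 1.11, and 0 to the 6 gamma-type members, whose median was 0.05. The control class held 80 cells, so several control values rest on few UMIs.

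Ifit2, which encodes an RNA-binding antiviral protein, had 2 UMIs in control and stood at 3.47, 65.5, 39.5 and 28.2 CPM, a ratio of low-AFP to control of 18.9 with a wide interval (5.15 to 157). Ifit3 stood at 20.8, 94.2, 69.0 and 47.0 CPM and Ifit1 at 22.5, 74.1, 66.8 and 30.3 CPM. Each of the 3 Ifit genes was lowest in control and highest in low-AFP. Of the oligoadenylate synthetase genes, whose products activate RNase L, Oas3 stood at 32.9, 87.1, 80.4 and 58.0 CPM and was called in low-AFP and high-AFP. Oas1a at 60.7, 96.6, 69.0 and 69.0 CPM, Oas2 at 17.3, 25.6, 27.2 and 21.3 CPM and Oasl2 at 88.4, 156, 134 and 109 CPM were not called. Mx1, a dynamin-like antiviral GTPase gene, stood at 19.1, 49.7, 33.4 and 27.6 CPM and was called in low-AFP, as were Isg15 at 160, 353, 260 and 185 CPM and Stat2, a subunit of the factor that binds ISREs, at 31.2, 72.5, 62.8 and 50.8 CPM. Rsad2, which encodes the antiviral enzyme viperin, was at 22.5, 81.2, 52.3 and 39.6 CPM, and its genomic neighbour Cmpk2 at 8.67, 29.6, 18 and 18.5 CPM. Every one of these genes was lowest in control and, apart from Oas2, highest in low-AFP.

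Gamma-type members of the same cells stood at 643, 587, 489 and 390 CPM in sum, highest in control. In control 1 cell held 98 of 371 gamma-type UMIs, and the sum was 482 CPM without it, under the 587 CPM of low-AFP. Without Gbp2 the sums were 326, 385, 323 and 253 CPM, with low-AFP the highest. The first rank of control thus rests on 1 cell and on Gbp2. Gbp2 stood at 317, 202, 166 and 136 CPM and was called lower in HCC, as was Iigp1 at 45.1, 33.5, 32.5 and 13.2 CPM. With all cells kept, the ratio of type I to gamma-type sums was 0.41, 1.11, 1.06 and 1.00. In high-AFP 5 of 38 members were called higher and 0 lower (0.774% and 0.986% of all genes), 4 of them type I members: Ifit1, Ifit2, Ifit3 and Oas3. The fifth was Ubd, at 0 UMIs in control and 11.4 CPM in high-AFP. In HCC 1 was called higher, Ifit2, and 2 lower of 37 (0.871% and 4.16%). The main monocyte-like cluster, cluster 7, held 75.25% to 93.53% of the class and gave type I sums of 286, 666, 539 and 430 CPM. After thinning to 2000 UMIs, 1.28%, 15.0%, 12.7% and 7.23% of monocyte-like cells had at least 3 type I UMIs. The shares with at least 3 gamma-type UMIs were 8.97%, 14.3%, 10.6% and 6.95%. The classes' depths, hepatocyte markers (5604, 3680, 3375 and 571 CPM) and dissociation genes (3106, 2500, 2357 and 6097 CPM) also differed between libraries, and their part was not tested.

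**Figure D2:**
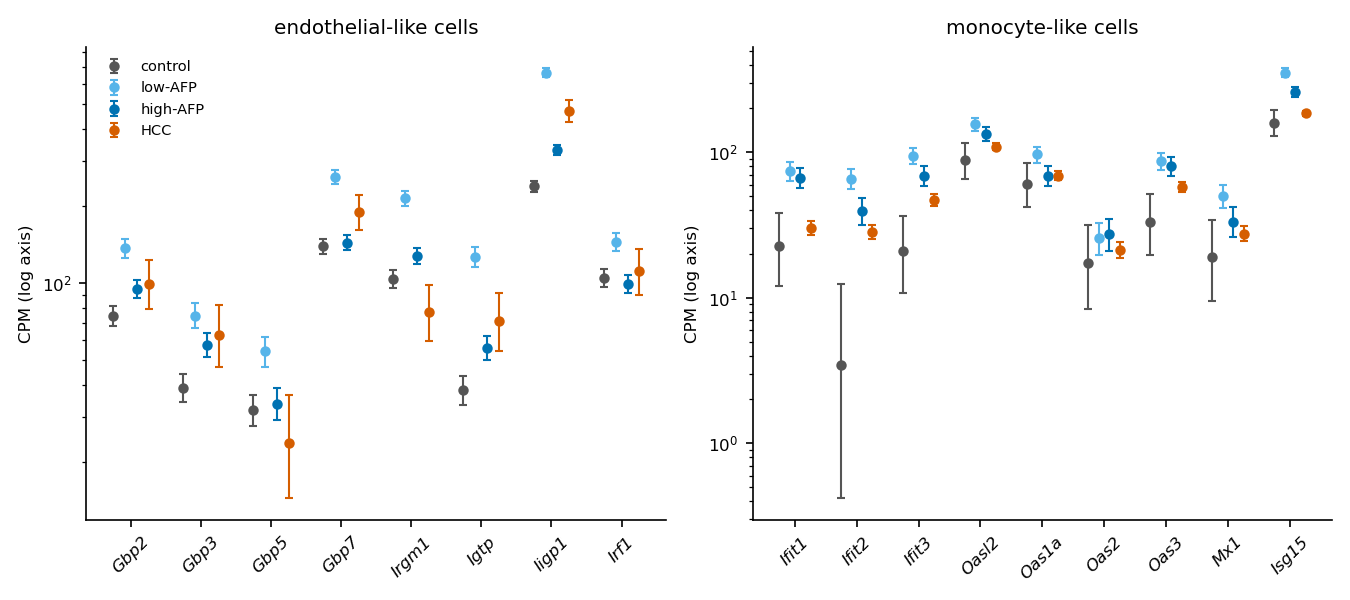
Levels (CPM, log axis) of the gamma-type genes with Iigp1 and Irf1 in endothelial-like cells (left) and of the type I genes with Isg15 in monocyte-like cells (right), 1 point per library with its exact 95% Poisson interval. In endothelial-like cells Igtp stands at 127 CPM in low-AFP against 38.1 CPM in control, and in monocyte-like cells Ifit3 stands at 94.2 CPM in low-AFP against 20.8 CPM in control.

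Macrophage-like cells, which hold the liver's resident Kupffer cells and recruited macrophages, had high levels and few called members. In low-AFP 1 of 38 measured members was called higher and 0 lower (0.267% and 1.20% of all genes), and in high-AFP and HCC 0 of 38 were called either way (0.292% and 1.55% of all genes in high-AFP, 1.53% and 6.95% in HCC). The called gene was Oas1a, at 27.3, 68.2, 58.5 and 64.2 CPM, lowest in control. Ifi27l2a stood at 928, 1675, 1560 and 1237 CPM and Irf7 at 301, 363, 365 and 269 CPM. Isg15 stood at 100.8, 187.9, 137.2 and 180.2 CPM, a ratio of low-AFP to control of 1.86 (1.62 to 2.15), and was not called. After thinning to 2000 UMIs, 11.45%, 21.49%, 13.79% and 9.764% of macrophage-like cells had at least 3 type I UMIs. Oas2 at 44.0, 44.1, 42.1 and 30.5 CPM and Oas3 at 75.6, 95, 76.5 and 44.4 CPM were lowest in HCC. The median log2 fold over members was 0.21, -0.04 and -0.26 in low-AFP, high-AFP and HCC, and with the trimmed-mean scaling of edgeR (TMM) it was 0.39, 0.20 and 0.05, so its sign in high-AFP and HCC flips with that scaling. That scaling moved the median of all genes by 0.15, 0.21 and 0.27. Cluster 9, led by the Kupffer cell genes Clec4f, Cd5l and Vsig4, had type I sums of 569, 776, 620 and 677 CPM. Cluster 10, led by Mmp12, Gpnmb and Trem2, had 458, 646, 480 and 342 CPM. Type I members were higher in the cluster with Kupffer cell genes in each library, and the makeup of the class differed, with cluster 9 the largest cluster in control and cluster 10 in the other 3.

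Conventional dendritic-like cells, which present antigen to T cells, had 4, 4 and 3 of 36 members called higher in low-AFP, high-AFP and HCC and 0 lower, beside 0.303%, 0.651% and 0.937% of all genes called higher and 0.378%, 0.476% and 3.17% called lower. Ifit3 stood at 8.10, 42.6, 34.6 and 36.0 CPM and Zbp1 at 33.2, 79.4, 77.1 and 84.1 CPM, and both were called in all 3 libraries. Oasl2 stood at 26.7, 66.2, 57.2 and 58.2 CPM and was called in low-AFP. Rtp4, which encodes a receptor chaperone, stood at 25.9, 60.8, 71.1 and 54.0 CPM and was called in high-AFP. Ifi27l2a stood at 409, 847, 928 and 810 CPM and was called in low-AFP and high-AFP, and Gbp7 at 7.29, 17.8, 19.6 and 25.5 CPM was called in HCC. In each of these 6 genes control was the lowest library and the other 3 lay close together. The makeup of the class also differed. Cluster 24, led by Xcr1, was the largest in control (42.06%). Cluster 14, led by Cd209a and Clec10a, was the largest in low-AFP, high-AFP and HCC (53.5%, 55.03% and 66.2%). The part of this makeup was not tested.

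In hepatocyte-like cells few members were called outside HCC. In low-AFP 2 of 27 measured members were called higher (0.945% of all genes) and 0 lower (0.515%), and in high-AFP 2 of 27 higher (1.45%) and 0 lower (0.723%). These were the same genes in both, Ubd and Ifi27l2b. Ubd encodes FAT10, a ubiquitin-like modifier induced by interferon gamma and tumour necrosis factor, and stood at 0.849, 27.9, 54.6 and 109.6 CPM, in ascending order from control to HCC. Ifi27l2b stood at 16.3, 74.5, 64.8 and 292 CPM. Control was the lowest library and HCC the highest for both genes, and log2 folds over control were 1.80, 2.57 and 3.46 for Ubd and 1.69, 1.51 and 3.52 for Ifi27l2b.

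Within hepatocyte-like cluster 3, the largest of the class in HCC, led by Gnmt and Fbp1 and present in all libraries, Ubd stood at 2.74, 36.0, 88.5 and 108 CPM, in the same order. Ifi27l2b stood there at 26.0, 101, 69.2 and 54.2 CPM, so its high value in HCC was not seen in that cluster, where its log2 fold over control was 0.84. The highest Ifi27l2b values of HCC were in clusters 34 and 20, at 522 and 267 CPM. Cluster 34 was led by Tspan8, Cyp2a4 and Igfbp1 and cluster 20 by Akr1c18, the alpha-fetoprotein gene Afp and Tstd1, and high-AFP cells of cluster 20 had 133 CPM. Ubd was highest in cluster 17, led by the glutathione transferase gene Gsta1, at 467, 474 and 707 CPM in low-AFP, high-AFP and HCC, where control had 0 cells. Ubd is itself among the 10 leading genes of cluster 17. Ubd was also detected in endothelial-like cells at 0.475, 10.2, 29.1 and 5.93 CPM and in cholangiocyte-like cells at 3.99, 77.3 and 53.2 CPM in control, low-AFP and high-AFP. Hepatocyte markers stood at 3925 CPM in high-AFP endothelial-like cells. In cholangiocyte-like cells they stood at 10456.5 CPM in low-AFP and 9025.5 CPM in high-AFP.

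In HCC 9 of 30 measured members were called higher in hepatocyte-like cells and 0 lower, but 13.2% of all genes of this class were called higher and 5.38% lower. With TMM the count was 5, the median of all genes moved by -0.41, and the median log2 fold of the members went from 0.33 to -0.13. Isg15 stood at 19.9, 43.1, 42.1 and 108 CPM, and Usp18, the protease gene that removes the Isg15 protein from its targets, at 9.65, 12.9, 13.2 and 37.6 CPM. Ifi35 stood at 17.5, 24.2, 25.3 and 53.3 CPM, Zbp1 at 6.68, 16.8, 15.6 and 24.9 CPM and Ifi27l2a at 2.72, 6.60, 12.8 and 23.9 CPM. Control was the lowest and HCC the highest library for each. Within cluster 3, however, Isg15 stood at 174, 134, 101 and 79.2 CPM, the reverse order. There 1 control cell held 158 of the 563 Isg15 UMIs of all control hepatocyte-like cells, so no order is read from cluster 3. A mitochondrial limit of 15% keeps that cell, which had 0.3781% mitochondrial UMIs. With that limit the log2 fold of Isg15 in HCC over control, 1.98 in the main setting, was 0.34. Among gamma-type members, Irgm1 stood at 34, 44.5, 42.1 and 39.0 CPM, Gbp7 at 17.4, 21.6, 20.7 and 23.3 CPM and Igtp at 24.4, 43.7, 28.2 and 27.3 CPM, and none of these was called. Gbp2 was called in HCC, at 2.65, 5.17, 6.43 and 18.3 CPM, and was at 11.5 CPM in HCC without its highest cell. Iigp1 stood at 350, 416, 404 and 457 CPM.

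The type I UMIs of hepatocyte-like cells were held by very few cells. Ranked by type I UMIs, 26 of 2675 control cells (0.972%) held 50% of them, and so did 14 of 2135 in low-AFP (0.656%), 73 of 3592 in high-AFP (2.03%) and 1 of 888 in HCC (0.113%). These cells held 1.39%, 0.971%, 3.72% and 1.45% of the depth of the class. Gamma-type UMIs of the same cells were spread more widely, with 50% in 12.2%, 10.2%, 10.4% and 1.69% of cells. In endothelial-like cells 50% of the type I UMIs lay in 10.7%, 12.8%, 12.7% and 10.8% of cells, in macrophage-like cells in 11.5%, 18.4%, 19.4% and 13.7%, and in monocyte-like cells in 15.0%, 12.2%, 12.4% and 13.2%.

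Few genes were so concentrated in hepatocyte-like cells. Among all genes with 100 to 3000 UMIs in the class, the median gene had 50% of its UMIs in 6.54%, 7.31%, 5.82% and 3.72% of cells, and 0.352%, 1.03%, 1.58% and 2.18% of genes had them in under 1% of cells. Of the interferon-stimulated genes in that range, 2 of 28, 5 of 32, 5 of 35 and 7 of 26 did. Rsad2 was an extreme, with 50% of its UMIs in 4 cells of control, 5 of low-AFP, 9 of high-AFP and 3 of HCC, and Ifit3 had them in 2, 4, 11 and 3 cells. By contrast 50% of Iigp1 UMIs lay in 19.4%, 14.2%, 15.2% and 4.05% of cells.

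Some other antiviral genes lay in the same cells to different extents. The 10 hepatocyte-like cells with most type I UMIs held 44.43%, 47.3%, 33.38% and 76.37% of the type I UMIs of their libraries, and 65.27%, 59.34%, 45.76% and 41.78% of the Rsad2 UMIs, a gene not used to rank them. Of Isg15 they held 37.83%, 27.43%, 9.442% and 50.56%, and of Cxcl10 25.95%, 18.32%, 17.9% and 78.08%, so the share was least for Isg15 in high-AFP. They held 3.921%, 7.862%, 2.256% and 19.97% of gamma-type UMIs and 0.5832%, 0.8022%, 0.5222% and 4.657% of the UMIs of the class. The first control cell had 91 Ifit1, 34 Ifit3 and 166 Rsad2 UMIs and 18 gamma-type UMIs among 22399. The first low-AFP cell had 303 of the library's 1575 hepatocyte-like Isg15 UMIs, with 178 Rsad2 and 99 gamma-type UMIs among 56331. The first high-AFP cell had 172 Ifit1, 217 Rsad2 and 24 gamma-type UMIs among 24583. These 3 cells had 2076, 5485 and 1044 UMIs of the hepatocyte markers and at most 78 of any other class's marker list, and Ptprc, the pan-leukocyte gene, was at 0 in each. Their mitochondrial shares were 26.05%, 12.43% and 15.51%, beside medians of 21.4%, 15.2% and 14.4% in the hepatocyte-like cells of these libraries.

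The HCC cell was of another make. It lay in cluster 17 and had 326 of the 584 type I UMIs of the HCC hepatocyte-like cells, including 245 of 279 Ifit2 UMIs and 80 Ifit1 UMIs, but 1 Ifit3 UMI and 4 gamma-type UMIs. It also had 737 of the 1008 UMIs of Cxcl10, an interferon-induced chemokine gene. Its depth was 85224 UMIs, with 4 UMIs of albumin (Alb), 89 of all hepatocyte markers and 50 of the highest other marker list, so its place in the class rests on little. Without it the type I sum of HCC hepatocyte-like cells was 45.6 CPM (40.2 to 51.5) and lay between control and the AFP libraries. Without each gene's highest cell, Ifit2 in HCC was at 6.01 CPM (4.16 to 8.40) and no longer measured, Ifit1 at 15.2 CPM and Isg15 at 91.3 CPM. Whether any of these cells are doublets beyond those removed was not tested.

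Shares of hepatocyte-like cells with a type I UMI were low. After thinning to 2000 UMIs, 4.05%, 6.15%, 7.07% and 6.00% of them had a type I UMI, beside 16.3%, 28.6%, 27.4% and 13.9% before thinning, and 0.352%, 0.615%, 0.621% and 0.222% had at least 3. Too shallow for thinning were 402 of 2675, 345 of 2135, 692 of 3592 and 438 of 888 cells. The thinned HCC shares thus describe only the 450 deeper cells. B-like cells, the class with the lowest control sum, had a type I UMI in 4.65%, 6.34%, 7.06% and 5.87% of cells after thinning, so the hepatocyte-like shares were near those of the lowest class and no difference between libraries is read from them. Endothelial-like cells had one in 36.8%, 48.9%, 41.6% and 37.5% and macrophage-like cells in 59.6%, 66.5%, 59.1% and 49.8% of cells.

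**Figure D3:**
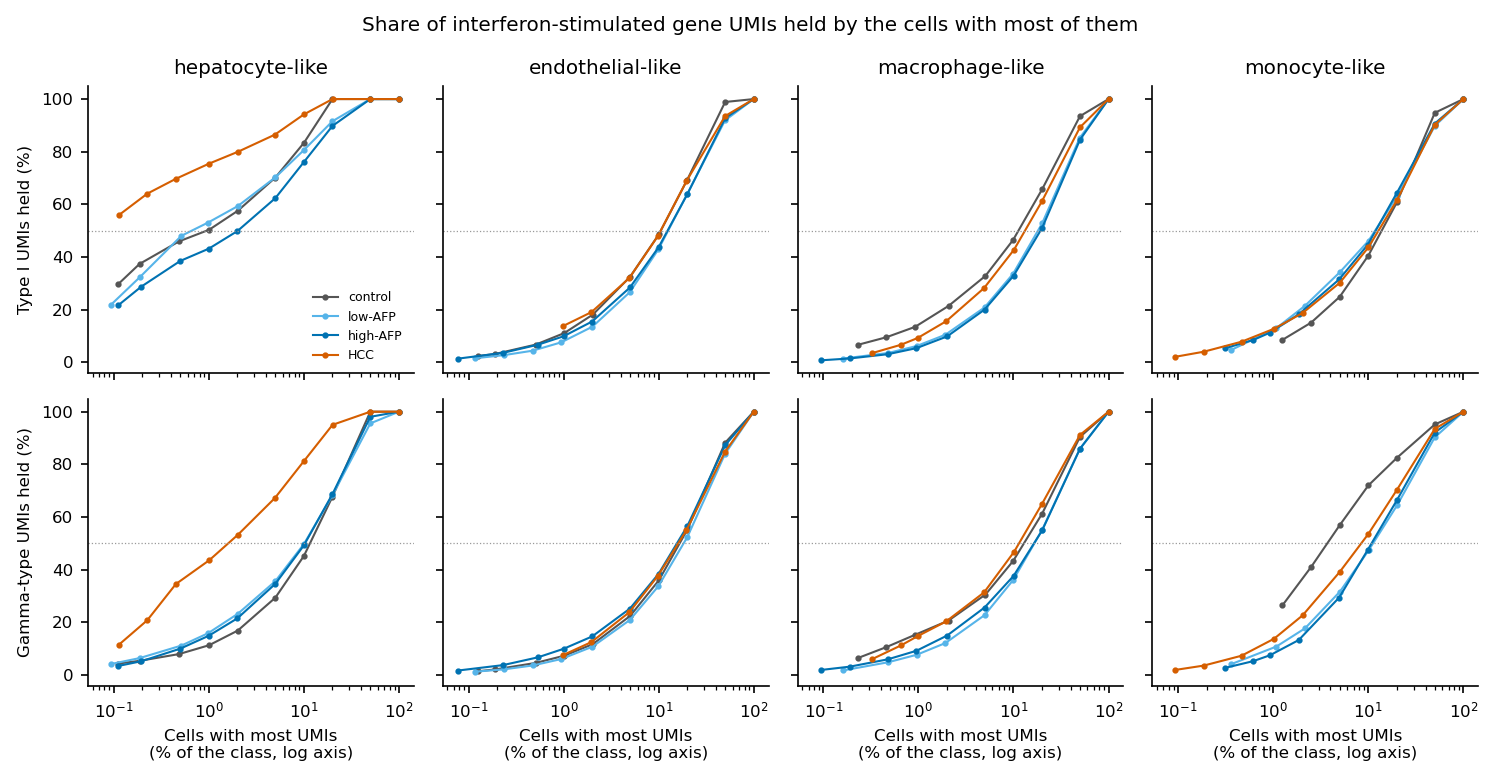
Share of type I UMIs (top) and gamma-type UMIs (bottom) held by the cells with most of them, against the share of cells of the class (log axis), 1 line per library, with the dotted line at 50%. In hepatocyte-like cells the type I curves reach 50% at 0.113% to 2.03% of cells, and in endothelial-like cells at 10.7% to 12.8%.

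The remaining classes gave fewer values. In cholangiocyte-like cells, the bile duct epithelium, 9 of 35 members were called higher and 0 lower in low-AFP (2.59% and 1.46% of all genes), from 57 control and 64 low-AFP cells. These included 3 of the 5 gamma-type members measured. Irgm1 stood at 73.8, 215 and 70.2 CPM and Igtp at 43.9, 137 and 29.8 CPM in control, low-AFP and high-AFP, and Iigp1 at 93.8, 339 and 136 CPM, so the low-AFP library was again the highest for the GTPase genes. In high-AFP 2 of 33 were called higher, Ubd and Zbp1, and 3 lower (2.88% and 2.5% of all genes), the latter on at most 51 UMIs each. In plasmacytoid dendritic-like cells, known as strong producers of type I interferon, 1 of 30 members was called higher in HCC and 5 lower (1.32% and 4.62% of all genes), from 69 control and 135 HCC cells. Isg15 stood at 105 CPM in control and 32.8 CPM in HCC, Ifit1 at 54.8 and 2.59 CPM (3 UMIs in HCC) and Ifit2 at 50.4 and 7.76 CPM. Single control cells held 20 of 48 Isg15, 20 of 25 Ifit1 and 16 of 23 Ifit2 UMIs. Without each gene's highest cell, control stood at 62.5 CPM for Isg15, 11.1 CPM for Ifit1 and 15.6 CPM for Ifit2. Irf1 was the member called higher, at 127 and 273 CPM. Between the same libraries, dissociation genes in these cells were at 708 and 2737 CPM and hepatocyte markers at 7400 and 534 CPM, and their part was not tested. In T-like cells 0 of 34 members were called either way in low-AFP (0.659% higher and 0.891% lower over all genes). In high-AFP 1 of 37 was higher and 0 lower (0.761% and 1.11%), Ubd, at 0 UMIs in control and 28 UMIs in high-AFP. In HCC 0 of 34 were called higher and 2 lower (1.57% and 5.18%): Slfn5, of the schlafen family, at 46.1, 39.9, 28.7 and 16.9 CPM, and Iigp1 at 45.2, 37.3, 48.5 and 14.6 CPM. Most T-like cells lay in cluster 8 in control, low-AFP and high-AFP (82.7% to 92.14%) but in clusters 6 and 11 in HCC (61.92% and 32.8%). Hepatocyte markers in T-like cells were at 9366, 5169, 5180 and 1067 CPM, and Iigp1 is high in hepatocyte-like cells. The part of either in these differences was not tested. B-like cells had 1 of 28 called higher in low-AFP (0.331% higher and 0.662% lower over all genes), Ifi27l2b, and 1 of 31 in high-AFP (0.883% and 0.942%), Ubd, both from at most 1 UMI in control. They had 0 of 28 called in HCC (0.772% and 6.85%). Neutrophil-like cells had Isg15 at 630, 796 and 669 CPM and Rsad2 at 365, 413 and 498 CPM in low-AFP, high-AFP and HCC, with Gbp2 at 435, 242 and 172 CPM.

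Zbp1 and Ubd were called higher than control more often than any other member, in 9 class comparisons each and never lower, and Ubd had 0 control UMIs in several of those classes. Its calls in T-like, B-like and monocyte-like cells rest on 28, 16 and 26 UMIs in high-AFP, where hepatocyte-like cells had 54.6 CPM and hepatocyte markers stood at 5180, 7600 and 3375 CPM in these classes. The part of free RNA was not tested, and these calls are not read as expression there. Nor was its part tested for the Ubd calls in endothelial-like and cholangiocyte-like cells. Ifi27l2a and Ifit3 were called higher in 5 each. The members without values above were Irf9, Ifi44, Ifih1, Ddx58, Dhx58, Eif2ak2, Parp14, Xaf1, Trim30a and Samd9l, which were not called in any comparison with control. Among them the nucleic acid sensors Ifih1 (MDA5), Ddx58 (RIG-I) and Dhx58 (LGP2) and the kinase gene Eif2ak2 (PKR) reached 100.9, 187, 63.1 and 80.7 CPM in their highest class and library. Irf9, the DNA-binding subunit of the type I factor, reached 156 CPM.

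**Figure D4:**
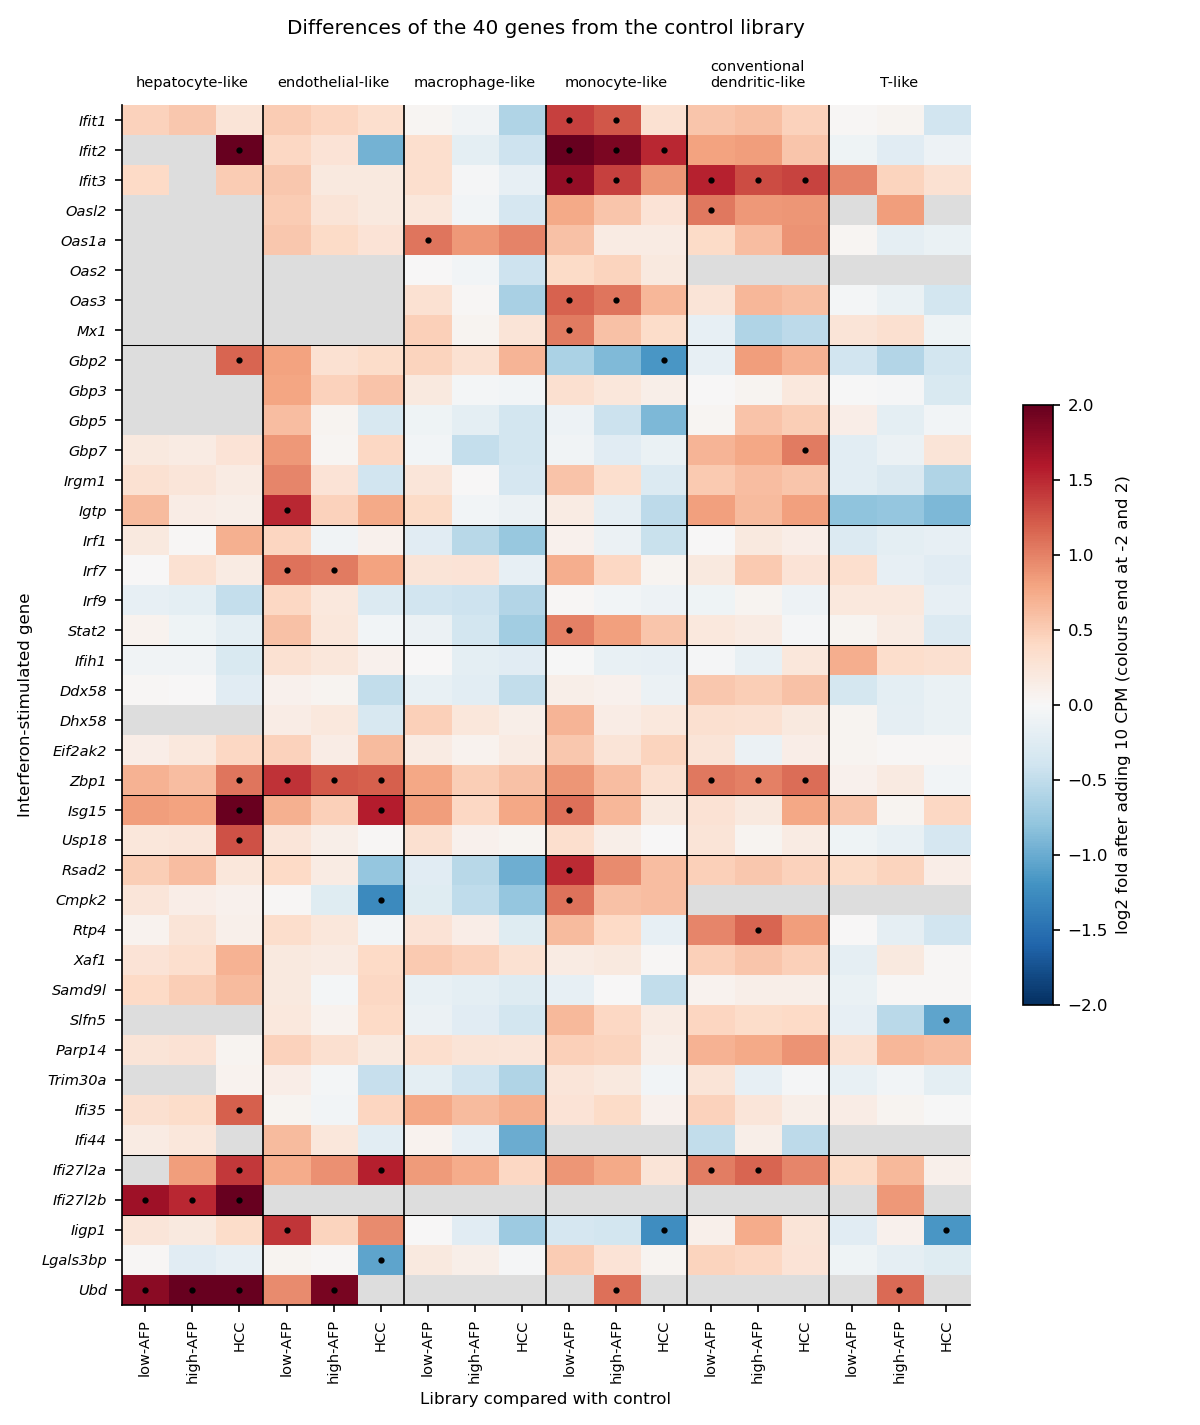
Log2 fold from the control library, after adding 10 CPM, of the 40 interferon-stimulated genes in 6 cell classes and the low-AFP, high-AFP and HCC libraries. Grey fields were not measured and black dots mark called differences. In endothelial-like cells of low-AFP all 36 measured genes are above 0, and in monocyte-like cells of low-AFP the highest values are those of Ifit2 at 2.49 and Ifit3 at 1.76.

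Of the ligands, interferon gamma was the one seen in more than 5 UMIs in any library. Ifng had 280, 293, 297 and 2159 UMIs over all kept cells, of which 244, 268, 268 and 2088 lay in T-like and NK-like cells. Per cell class it was at 109, 106, 95.3 and 151 CPM in T-like cells, which numbered 458, 422, 525 and 2558. Among the other 20 interferon genes listed, Ifnb1 had 1 UMI, in HCC, Ifnk had 0, 1, 5 and 1, Ifnz had 0, 1, 0 and 5, and 17 had 0 UMIs in every library. At this depth type I interferon transcripts were at or near 0 UMIs in every group.

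Among receptors, 1 of 6 was called in the hepatocyte-like, endothelial-like, macrophage-like or monocyte-like class. Ifngr1, the ligand-binding chain of the interferon gamma receptor, stood at 10.7, 16.7, 14.0 and 70.0 CPM in hepatocyte-like and 79.5, 116, 104 and 175 CPM in endothelial-like cells, highest in HCC in both. Of 3 kinases, Jak1 was called lower in endothelial-like cells of HCC, at 1583, 1659, 1494 and 651 CPM. Of 6 inhibitors, Socs3, which dampens cytokine signalling and is induced by several cytokines, was called higher in HCC in all 4 classes. It stood at 6.51, 9.26, 10.9 and 69.5 CPM in hepatocyte-like, 84.8, 106, 103 and 394 CPM in endothelial-like, 11.5, 12.7, 20.8 and 51.4 CPM in macrophage-like and 71.1, 108, 134 and 270 CPM in monocyte-like cells. The dissociation genes were also highest in HCC in these classes, at 2463 CPM in hepatocyte-like cells and 4578 CPM in macrophage-like cells, against 1734 and 4509 CPM in control, and at the levels given above in the other classes. Their part was not tested. Irf2bp2, a corepressor gene, was called lower in HCC, at 380, 368, 280 and 152 CPM in endothelial-like and 523, 298, 286 and 200 CPM in macrophage-like cells. Pias1, a SUMO ligase gene, was also lower in HCC, at 122, 107, 85.3 and 53.3 CPM in endothelial-like and 142, 95.6, 83.7 and 54.2 CPM in macrophage-like cells. Of all genes, HCC against control, 13.2%, 5.82%, 1.53% and 0.871% were called higher in hepatocyte-like, endothelial-like, macrophage-like and monocyte-like cells. Called lower were 8.4% in endothelial-like and 6.95% in macrophage-like cells. Most HCC endothelial-like cells (71.57%) lay in cluster 26, and the part of this makeup was not tested.

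Of 38 other interferon-stimulated genes listed, 37 had a row. In endothelial-like cells 3 of 29 measured were called higher in low-AFP and 0 lower (0.727% and 0.358% of all genes): the GTPase gene Irgm2 at 186 CPM against 87.2 CPM in control, and the chemokine genes Cxcl9 at 791 against 233 CPM and Cxcl10 at 251 against 85.9 CPM. In high-AFP 2 of 27 were called higher (1.01% of all genes), Cxcl9 at 621 CPM and Cxcl10 at 255 CPM. Both chemokines attract T cells through the receptor CXCR3. In monocyte-like cells the list split: in low-AFP 2 of 31 were called higher and 2 lower (0.477% and 0.552% of all genes). Oasl1 stood at 26.0 against 3.47 CPM in control (2 UMIs) and Ifit3b at 22.9 CPM against 0 UMIs, whereas Gbp4 stood at 15.0 against 48.5 CPM and Cxcl9 at 257 against 676 CPM. The same 4 genes were called the same way in high-AFP (0.774% of all genes called higher and 0.986% lower). Control values in both comparisons come from 80 monocyte-like cells, where single cells can weigh heavily, as for the gamma-type sum above. In macrophage-like cells Cxcl9 was called higher in high-AFP and HCC, at 142 and 254 CPM against 54.3 CPM in control (0.292% and 1.53% of all genes). In hepatocyte-like cells 0 were called in low-AFP, 3 of 15 in high-AFP (1.45% of all genes called higher) and 5 of 17 in HCC, all higher. The immunoproteasome genes Psmb8 and Psmb9 were among the 5, at 184 against 41.3 CPM and 81.5 against 18.5 CPM, beside the 13.2% of all genes called higher there.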

How the data were processed

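Per the file headers, the authors deposited whole-number UMI counts for each of 31053 genes in each barcode. Per the submitters' processing notes the tools were Cell Ranger, R (3.0) and Seurat (3), with mm9 as the genome build. Version 3.0.2 of the software stands in the matrix headers. Libraries used a 10x 3′ kit, per the labels' protocols. Promoters are RefSeq's on GRCm38.p6 and share no coordinate with the counts.

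A barcode was kept if it had 300 or more genes, 500 or more UMIs and no more than 30% of its UMIs from mitochondrial genes. Scrublet's own threshold marked under 0.5% of barcodes in each library, so the top-scoring barcodes were taken out at 0.8% per 1000 barcodes, which was 230 (low-AFP) to 575 (high-AFP) a library. Cells were clustered with scanpy 1.11.5 and leidenalg 0.10.2 on 2000 variable genes and 30 components, leaving out the members and the pathway genes. Classes under 50 cells give no value. Thinned shares use cells of at least 2000 UMIs. TMM factors came from edgeR 4.0.16, with no test. The count rule was tested on simulated data.

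Members and gene lists were chosen with earlier results of these data known. By a fixed rule, values are printed for members with at least 50 CPM in some class and library and a 2-fold difference from control in a class, and for each type I and gamma-type member in at least 1 class. Single cells, clusters and the genes named for their concentration were chosen after their values were seen. Comparisons with control share that library. Alternatives were another pseudocount, level minimum, scaling, mitochondrial limit, doublet rate, averaging over cells and clustering, and leaving out cells or clusters. 1 gene of the pathway lists is not reported here.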

Additional observations from a re-analysis of the deposited data

Results flagged for a closer look

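For 3 members the difference between HCC and control was at least 2-fold upward in one cell class and at least 2-fold downward in another. The difference between the classes was not tested, and each class is 1 library a group. Gbp2 had a log2 fold of 1.16 in hepatocyte-like cells and -1.16 in monocyte-like cells, and without each library's highest cell these were 0.87 and -0.71, neither of them called. Ifit2 had 2.33 in hepatocyte-like cells, where 1 cell held 245 of 279 UMIs, and -1.77 in plasmacytoid dendritic-like cells, with 0.51 and -0.71 without the highest cells. Isg15 had 1.98 in hepatocyte-like cells and -1.43 in plasmacytoid dendritic-like cells. Its hepatocyte-like value was 0.34 with a mitochondrial limit of 15% and -1.05 in cluster 3 alone. Both values keep 1 control cell that held 158 Isg15 UMIs. In plasmacytoid dendritic-like cells Isg15 was no longer called without the highest cells.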

How the results depend on the processing

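No paired analysis was possible because each group is 1 library, and for the same reason no library could be left out. The doublet rate planned as an alternative was the one used. A pseudocount of 1 CPM or no level minimum can only add calls, so all 125 called member folds kept theirs by arithmetic. Of the 125, 114 kept their call with TMM, 114 with a mitochondrial limit of 15% and 98 with the mean of the cells' own CPM. With clustering that kept the members 112 did, with doublets removed at 1.6% per 1000 barcodes 111, and without each gene's highest cell 109. The last 2 of these, and single clusters, were added after the data were seen.

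Counts of members called higher or lower moved by over 1.5 times as follows. With a pseudocount of 1 CPM, hepatocyte-like cells had 4 higher in low-AFP and 5 in high-AFP, macrophage-like cells 1 higher in high-AFP and 1 higher and 2 lower in HCC, and monocyte-like cells 3 higher in HCC. With TMM, macrophage-like cells had 3, 2 and 2 higher in low-AFP, high-AFP and HCC, hepatocyte-like cells 5 and monocyte-like cells 2 higher in HCC. With the mean of the cells' own CPM, macrophage-like cells had 4, 2 and 3 higher, and in HCC hepatocyte-like cells 2 lower, endothelial-like cells 1 lower and monocyte-like cells 2 higher. A mitochondrial limit of 15% gave 1 lower in high-AFP hepatocyte-like and 2 lower in HCC macrophage-like cells. Clustering that kept the members gave 0 higher in low-AFP macrophage-like cells, and doublets at 1.6% gave 2 there and 1 higher in HCC. Without each gene's highest cell, macrophage-like cells had 2 higher in low-AFP and 1 higher and 1 lower in HCC, endothelial-like cells 4 lower in HCC, and monocyte-like cells 2 higher and 1 lower in HCC. In cluster 3 alone, hepatocyte-like cells had 2 lower in low-AFP, 2 lower in high-AFP, and 2 higher and 3 lower in HCC. Cluster 2 alone gave 7 higher in low-AFP endothelial-like cells, and cluster 7 alone 3 higher in high-AFP monocyte-like cells. Macrophage-like cluster 9 alone gave 2 higher in low-AFP, 1 in high-AFP, and 2 higher and 1 lower in HCC, and cluster 10 alone 1 higher in high-AFP and 1 lower in HCC. The cause of these moves was not tested. The count of 9 higher in low-AFP monocyte-like cells lay between 8 and 9 under each setting run, and that of 4 in low-AFP endothelial-like cells between 4 and 7.

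Log2 folds that turned sign in cluster 3 alone were those of hepatocyte-like cells in HCC: Isg15 at -1.05 and Ifit2 at -0.65 against control, and Isg15 at -0.31, Ifit2 at -0.25 and Ifi27l2b at -0.30 against high-AFP. For Isg15 against control, 1 control cell of the cluster held 158 UMIs, and its part was not tested. In neutrophil-like cells, Dhx58 in high-AFP against low-AFP was -0.83 with clustering that kept the members and 0.00 without its highest cell, and in HCC against high-AFP it was 0.86 and 0.76. Ifit2 in HCC against high-AFP was 1.48 and 0.43 under these settings, and 0.68 with the mean of the cells' own CPM. Slfn5 in cholangiocyte-like cells of high-AFP was 0.00 with doublets at 1.6%. Endothelial-like cluster 26 and hepatocyte-like clusters 20 and 34 had under 50 control cells and gave no value alone. Low depth limits the classes with few cells, where 1 to 3 UMIs set a control level.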

Other observations

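One group of 336 HCC cells, led by Oat, Adgrv1 and Glul, stayed without a class name because its hepatocyte markers scored low. Its type I members summed to 51.4 CPM and its gamma-type members to 95.1 CPM, beside 101.7 and 115 CPM in the hepatocyte-like cells of the same library, whose type I sum was 45.6 CPM (40.2 to 51.5) without 1 cell. The type I sums thus give no order between these cells.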
